A study of Homo sapiens with 12 samples.

Results

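Late cornified envelope, small proline-rich and involucrin genes encode precursors of the cornified envelope, the cross-linked protein shell that replaces the plasma membrane of dying keratinocytes. The members described are LCE3A, LCE3C, LCE3D and LCE3E of late cornified envelope group 3, SPRR1A, SPRR1B and SPRR2D of the small proline-rich family, and IVL, which encodes involucrin. They are 8 of the 58830 rows of the deposited table and were found by symbol. LCE3D was chosen by its measured values, 0 without TGFβ and high with it, and the other 7 were added as relatives by family and function, so the height of LCE3D with TGFβ is a description and was not tested. Of the 8 genes, 5 were above 0 in at least 1 library and 4 passed the filter for testing, which asked for 10 normalized counts or more in 3 or more of the 12 libraries.

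RNA was sequenced from A549, a human lung adenocarcinoma epithelial line, and from the derivative A549_Sm22mut, here the edited line, whose genotype label is a knockout of the target site of the microRNA miR-22 in SNAI1. SNAI1 encodes a transcription factor that represses epithelial genes. The 4 groups were the edited line with TGFβ, the edited line untreated, wild type A549 with TGFβ and wild type A549 untreated. Each held 3 libraries that the labels call biological repeats. TGFβ, an inducer of epithelial-mesenchymal transition, was given at 10 ng/mL, and every library was taken at day 5. All groups grew in the same serum-containing medium. The labels name 1 edited derivative, so the edit and the derivation of that line cannot be told apart, and the p-values cover only the spread among those repeats.

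Values are the authors' normalized counts, and dividing each library by its own constant step gave back whole reads, 84210775 to 111141708 per library. SNAI1, the edited target, averaged 1313 ± 96.5 with TGFβ and 481 ± 43.4 untreated in the edited line, and 875 ± 97.2 with TGFβ and 496 ± 88.6 untreated in wild type (normalized counts, SD, n = 3 each). Its log2 response to TGFβ was larger in the edited line by 0.62 ± 0.18 (interaction term in limma, adjusted p = 0.0279 over all tested genes). That difference missed the threshold of 0.05 on leaving out treated replicate 1 or 3 or untreated replicate 3 of the edited line and treated replicate 2 or untreated replicate 1 or 3 of wild type (adjusted p between 0.0506 and 0.0793). Whether the labels of the lines are right cannot be read from SNAI1, because such an edit need not change its read count. Of the lung epithelial markers, KRT8, a simple-epithelium keratin, averaged between 275324 and 346244 in the 4 groups, while the alveolar surfactant gene SFTPC averaged at most 3.59.

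The cornified envelope is built late in the life of an epidermal keratinocyte. Involucrin and envoplakin are laid down first under the plasma membrane, transglutaminases join them through glutamine and lysine residues, and loricrin, small proline-rich and late cornified envelope proteins are then added. The genes lie together in the epidermal differentiation complex on chromosome 1. Group 3 of the LCE family is low in healthy skin and is known for its induction in wounded and psoriatic epidermis. LCE3B and LCE3C are missing together from many human genomes through a common deletion, and the copy number of these genes in A549 was not analysed here.

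The LCE3 genes are short and alike, and their sequences bear on which gene a read can be given to. The coding sequences below, without the stop codon, come from GENCODE 29 transcripts on GRCh38. LCE3D lies at chr1:152579661-152579936 on the minus strand, LCE3E at chr1:152565933-152566208 on the minus strand, LCE3C at chr1:152600732-152601013 on the plus strand and LCE3A at chr1:152622837-152623103 on the minus strand. Capitals mark exact runs of at least 31 bases that are shared with LCE3E (in the line for LCE3D) or with LCE3D (in the other lines).
LCE3D: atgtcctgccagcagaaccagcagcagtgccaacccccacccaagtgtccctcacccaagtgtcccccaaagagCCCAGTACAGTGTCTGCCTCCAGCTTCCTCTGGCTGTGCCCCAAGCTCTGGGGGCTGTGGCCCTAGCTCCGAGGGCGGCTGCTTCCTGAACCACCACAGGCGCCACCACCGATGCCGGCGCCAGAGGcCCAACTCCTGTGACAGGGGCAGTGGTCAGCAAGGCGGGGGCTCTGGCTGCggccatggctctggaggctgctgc
LCE3E: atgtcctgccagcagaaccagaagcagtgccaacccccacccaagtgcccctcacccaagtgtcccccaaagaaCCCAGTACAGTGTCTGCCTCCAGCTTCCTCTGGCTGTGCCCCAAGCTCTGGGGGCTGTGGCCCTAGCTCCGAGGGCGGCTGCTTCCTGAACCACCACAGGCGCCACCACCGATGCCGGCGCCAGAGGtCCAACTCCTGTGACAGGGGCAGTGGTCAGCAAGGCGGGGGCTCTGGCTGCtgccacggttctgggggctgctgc
LCE3C: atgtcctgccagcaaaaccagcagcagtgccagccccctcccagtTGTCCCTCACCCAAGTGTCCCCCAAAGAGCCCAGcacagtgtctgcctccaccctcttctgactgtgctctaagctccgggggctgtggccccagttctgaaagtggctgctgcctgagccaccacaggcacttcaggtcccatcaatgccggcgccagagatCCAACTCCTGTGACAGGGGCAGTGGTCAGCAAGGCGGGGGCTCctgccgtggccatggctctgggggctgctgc
LCE3A: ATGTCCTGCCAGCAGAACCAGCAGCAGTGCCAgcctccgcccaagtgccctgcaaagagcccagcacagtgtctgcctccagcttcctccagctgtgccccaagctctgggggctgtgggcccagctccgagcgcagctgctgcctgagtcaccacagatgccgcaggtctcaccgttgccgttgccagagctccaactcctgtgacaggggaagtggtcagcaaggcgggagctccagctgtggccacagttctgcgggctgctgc

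LCE3D and LCE3E were identical at 268 of 276 coding positions (97.1%), with a longest shared run of 127 bases. LCE3D and LCE3C were 86.9% identical over the alignment, and LCE3D and LCE3A 81.2%. Over the whole annotated transcripts, 79 of the 564 windows of 50 bases in LCE3D also occurred in LCE3E, which has 562 such windows (14.1%). No 50-base window of LCE3A, LCE3C or IVL occurred in a transcript of another gene. Reads from the shared stretch cannot be told apart between LCE3D and LCE3E, and how the authors counted such reads is not stated in the labels. For the small proline-rich genes, 11.3% of the SPRR1A windows, 4.38% of the SPRR1B windows and 19.3% of the SPRR2D windows occurred in relatives.

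LCE3D, a structural precursor of the envelope, was high in the TGFβ-treated libraries of both lines and close to 0 without treatment. Its normalized counts in the edited line were 3409.7, 3115 and 3253.6 with TGFβ, against 0, 1.07 and 0 untreated. In wild type they were 2817, 2239.9 and 1843 with TGFβ, against 0 in all 3 untreated libraries. Every treated library stood above every untreated one, and the untreated value of 1.07 was a single read. The share of all tested genes separated in this way was not counted, so the separation is a description. The edited line averaged 3259 ± 147 with TGFβ, a ratio to its untreated libraries of 10190 that rests on 1 untreated read (exact 95% interval 1829 to 402600). In wild type the mean was 2300.1 ± 489.8 with TGFβ, at least 2368-fold higher than untreated, where 0 reads were counted as a floor of 3 reads over the group. These intervals and floors cover counting error only, and reads are not independent molecules.

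LCE3E, the nearest group 3 neighbour of LCE3D, had the next highest counts. Its normalized counts in the edited line were 1284, 1182 and 1134 with TGFβ, against 0 in all 3 untreated libraries. Wild type libraries had 951.9, 866.8 and 706.0 with TGFβ, against 1.99, 3.30 and 0 untreated. The untreated wild type values rest on 6 reads. Treated and untreated libraries did not overlap in either line, which again is a description without the share of all tested genes. Treated edited cells were at least 1252-fold higher than untreated ones, and in wild type the ratio was 435.7 (exact 95% interval 199.9 to 1188).

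LCE3A and IVL were present at lower counts. LCE3A measured 64.7, 42.0 and 59.2 in the edited line with TGFβ and 45.1, 47.9 and 30.3 in wild type with TGFβ, and it was listed at 0 in all 6 untreated libraries. IVL, the early scaffold protein of the envelope, measured 114.8, 115.2 and 66.0 in the edited line with TGFβ and 44.0, 40.3 and 52.1 in wild type with TGFβ, also with 0 in all 6 untreated libraries. LCE3A was therefore at least 57.6-fold higher in treated edited cells and at least 42.4-fold higher in treated wild type cells. For IVL the bounds were 103.6-fold and 48.1-fold in the edited line and in wild type.

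The other 4 genes stayed at or near 0. LCE3C, SPRR1B and SPRR2D were listed at 0 in all 12 libraries, which allows up to 3 reads over each group of 3 libraries. SPRR1A had 2 reads in replicate 1 of the treated edited line and 1 read in replicate 3 of the untreated edited line. SPRR1A and SPRR1B are small proline-rich precursors that cross-link envelope proteins, and neither was detectable as changed at this depth. LCE3C was thus at 0 while LCE3D on one side of it, and LCE3A beyond LCE3B on the other, were not.

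**Figure D1:**
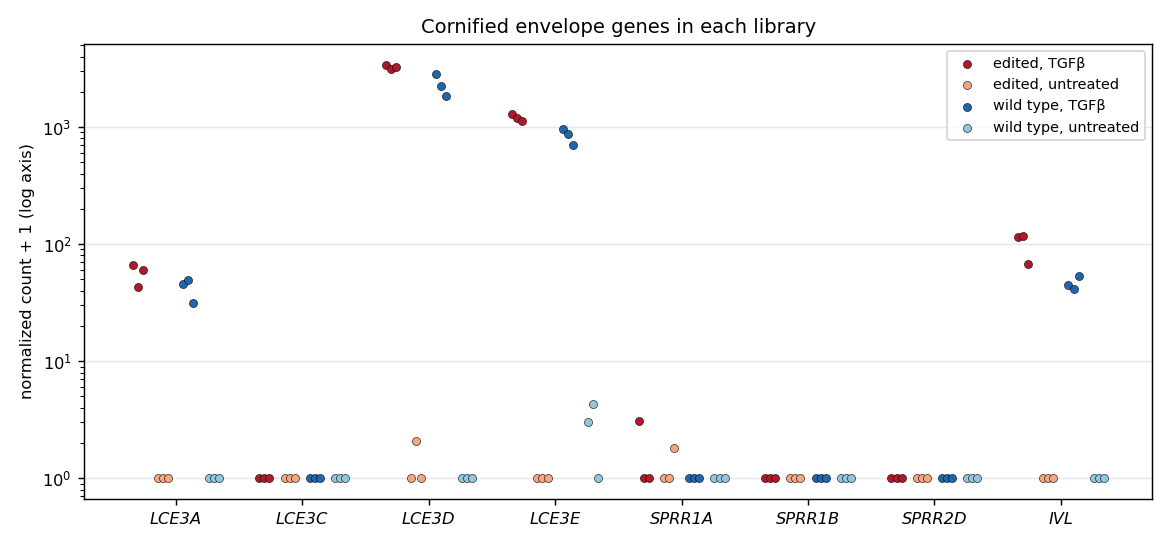
Normalized count plus 1 on a log axis for the 8 genes, with 1 point for each of the 12 libraries and colours for the 4 groups. LCE3D, LCE3E, LCE3A and IVL stand well above 1 in the 6 treated libraries and at or close to 1 (a count of 0) in the 6 untreated ones, while LCE3C, SPRR1B and SPRR2D sit at 1 throughout.

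The size of the TGFβ effect was read from 1 limma fit on log2(normalized count + 1). Tests in that fit were two-sided, with p-values adjusted by Benjamini-Hochberg over 20456 genes and called under 0.05. In the edited line the log2 fold change ± SE was 10.23 ± 0.40 for LCE3E, 6.59 ± 0.47 for IVL and 5.79 ± 0.50 for LCE3A, and it was 11.32 for LCE3D. In each of them all 3 treated libraries stood above all 3 untreated ones, and the share of all tested genes that did so was not counted. These 4 genes passed the filter only through treated libraries, with 10 or more in all 6 of those and in no untreated one, so the values are given as a description with no p. Of all tested genes, 32.1% were called higher and 30.7% lower with TGFβ in the edited line. In wild type the log2 fold changes were 11.15 for LCE3D, 8.48 for LCE3E, 5.53 for IVL and 5.37 for LCE3A, where 30.8% of all genes were called higher and 30.9% lower. The choice of LCE3D by its rise with TGFβ named neither line. The median of the 4 members was 8.41 in the edited line and 7.005 in wild type, against 0.03 and 0.02 over all tested genes, and it was 8.49 and 7.18 with each gene at its bound or read ratio. LCE3D was picked for its rise and all 4 passed the filter only through treated libraries, so the gap from all genes is no evidence. Fold changes on this scale depend on the pseudocount, understate the change of genes near 0 and are no bounds, and with bulk RNA a change in the number of expressing cells cannot be told apart from a change in RNA per cell.

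Levels per length gave a different order from raw counts. Per kilobase of exon, normalized counts in the treated edited line were 5317 ± 240.4 for LCE3D, 1964 ± 125 for LCE3E, 205 ± 43.9 for LCE3A and 45.8 ± 13.2 for IVL. The same order held in treated wild type, with 3752 ± 799 for LCE3D, 1377 ± 204 for LCE3E, 152 ± 35.1 for LCE3A and 21.1 ± 2.81 for IVL (SD, n = 3 each). Neighbours in that order were separated by more than their SD in both lines. The annotated exon of LCE3A (270 bases) is its 267 coding bases and the stop codon, while those of LCE3D (613 and 276) and IVL (2153 and 1755) include untranslated sequence, so the value of LCE3A per kilobase rests on a shorter kind of gene model. On these lengths LCE3A ranked above IVL, although IVL had the higher raw count in the edited line, where their libraries did not overlap.

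The ratio of LCE3D to LCE3E was nearly constant over the treated libraries. It was 2.66, 2.64 and 2.87 in the edited line, against 2.96, 2.58 and 2.61 in wild type, with means of 2.72 ± 0.13 and 2.72 ± 0.21 (SD, n = 3 each). The groups overlapped fully. The ratio of LCE3D to IVL varied more, at 35.4 ± 12.2 in the edited line and 51.7 ± 14.8 in wild type. Reads shared between LCE3D and LCE3E could alter the first ratio, and their part in it was not tested.

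Whether the edited line differed from wild type under TGFβ was asked for all 8 genes. The choice of LCE3D did not compare the lines, but this contrast shares the treated libraries of that choice. The means were higher in the edited line for each of the 4 detected genes, 1.42-fold for LCE3D, 1.43-fold for LCE3E, 1.35-fold for LCE3A and 2.17-fold for IVL. LCE3D libraries ran between 3115 and 3409.7 in the edited line and between 1843 and 2817 in wild type. The lines did not overlap for LCE3D, LCE3E and IVL, and they overlapped for LCE3A, with 42.0 the lowest edited value and 47.9 the highest wild type one. The share of all tested genes without overlap in this contrast was not counted, so the lack of overlap is a description.

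**Figure D2:**
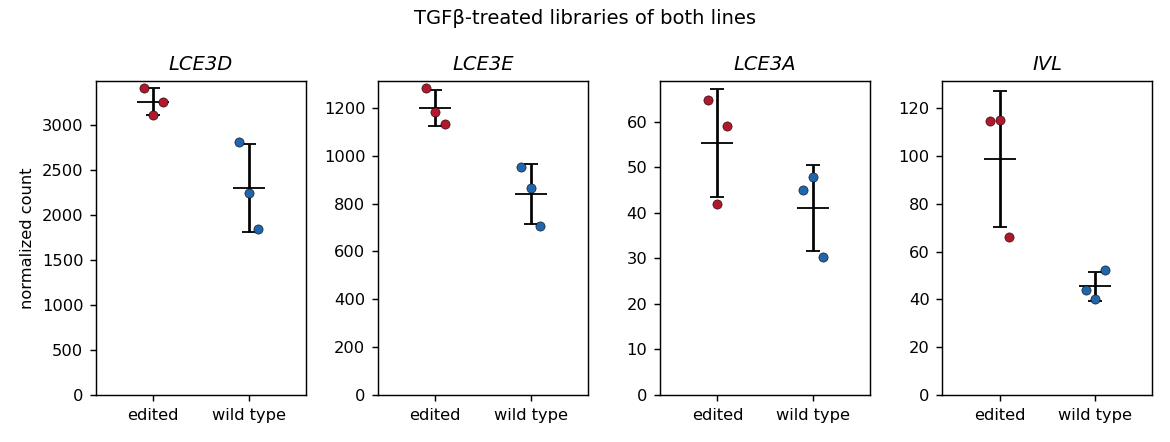
Normalized counts of LCE3D, LCE3E, LCE3A and IVL in the 3 TGFβ-treated libraries of the edited line and of wild type, each panel with its own axis from 0; points are libraries, and the bar and whiskers are mean and SD. The lines do not overlap for LCE3D, LCE3E and IVL and do overlap for LCE3A.

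None of these differences passed the threshold in limma, where 7.38% of all tested genes were called higher and 4.32% lower in the treated edited line. The log2 fold change of IVL was 1.06 ± 0.47 (95% interval 0.07 to 2.06, adjusted p = 0.163), the 1 member with an unadjusted p under 0.05. For LCE3D it was 0.52 ± 0.29 (-0.08 to 1.13, adjusted p = 0.272), for LCE3E 0.52 ± 0.40 (-0.34 to 1.38, adjusted p = 0.461) and for LCE3A 0.42 ± 0.50 (-0.63 to 1.48, adjusted p = 0.655). Count tools on the recovered reads called 3 of the 4 genes higher in the edited line. Of all 20456 tested genes, edgeR called 2564 and DESeq2 3259 in either direction in this contrast. With edgeR's quasi-likelihood test the adjusted p was 0.0136 for LCE3D, 0.0202 for LCE3E and 0.0496 for IVL, and with DESeq2 it was 0.00237, 0.00119 and 0.0132 for the same genes. The call therefore depends on the test. The SE in limma is pooled over all 12 libraries, 6 of which are at or near 0 for these genes. With the compared groups alone, limma called LCE3E (adjusted p = 0.0394) but neither LCE3D nor IVL. The cause of the difference between the tools was not tested.

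Without treatment the lines differed in few reads. LCE3E was lower in the edited line, with 0 reads against 6 in wild type, a log2 fold change of -1.23 ± 0.40 (limma, adjusted p = 0.0292), where 17.5% of all tested genes were called lower and 14.3% higher. The libraries of the lines overlapped at 0. The call was lost without any 1 of the 3 untreated edited libraries (adjusted p between 0.0558 and 0.0595) and without untreated wild type replicate 1 (-1.05, adjusted p = 0.0988) or 2 (-0.79, adjusted p = 0.132). LCE3D had 1 read in the untreated edited line and none in untreated wild type (0.35 ± 0.29, adjusted p = 0.385), and LCE3A and IVL were at 0 in both.

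Whether TGFβ acted unequally on the lines was tested as an interaction. For LCE3E the log2 response of the edited line exceeded that of wild type by 1.75 ± 0.57 (limma, adjusted p = 0.0474), where 10.6% of all tested genes were called larger and 6.02% smaller. That value holds the same 6 reads of untreated wild type, and the call was lost on leaving out any 1 library other than untreated wild type replicate 3, with values between 1.31 and 1.84 (adjusted p between 0.0544 and 0.101). The interaction was 1.06 ± 0.66 for IVL (adjusted p = 0.309), 0.42 ± 0.70 for LCE3A (adjusted p = 0.743) and 0.17 ± 0.40 for LCE3D (adjusted p = 0.825). LCE3A and IVL were at 0 in every untreated library, so their interactions repeat the treated contrast with a larger SE. The term of LCE3D holds the rise with TGFβ by which it was picked, so it is a description. Each tested member passed the filter only through treated libraries, which this term uses.

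The genes were then placed among their neighbours. On GRCh38 chromosome 1 the annotated order is LCE3E (chr1:152565654-152566772), LCE3D (chr1:152579381-152580504), LCE3C (chr1:152600662-152601086), LCE3B, LCE3A (chr1:152622834-152623103), IVL (chr1:152908545-152911886), SPRR1A (chr1:152985231-152985500), SPRR1B (chr1:153031202-153032900) and SPRR2D (chr1:153039725-153041931). None of the 8 overlaps another annotated gene. From 80 kb before to 600 kb after LCE3D the table held 33 protein-coding genes, of which 14 were at 0 in all 12 libraries. A mean of at least 10 with TGFβ was reached in both lines by 5 of them, LCE3D, LCE3E, LCE3A, IVL and CRCT1, and 0 genes reached it in both untreated groups. LCE3B, which lies between LCE3C and LCE3A, was at 0 in every library, as LCE3C was.

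CRCT1, a cysteine-rich C-terminal protein gene 63371 bases from LCE3D, was chosen for description after its values were seen. It measured 213.0, 122.8 and 197.9 in the edited line with TGFβ, against 0, 9.65 and 11.4 untreated. In wild type it measured 98.9, 64.2 and 80.7 with TGFβ, against 5.98, 14.8 and 17.2 untreated. CRCT1 was higher with TGFβ in both lines, by limma log2 fold changes of 5.09 ± 0.70 in the edited line and 2.68 ± 0.70 in wild type. No p is given for these, since the gene was picked by the same values. It had reads in 5 of 6 untreated libraries. Its interaction did not pass the threshold (2.41 ± 1.00, adjusted p = 0.114). KPRP, the keratinocyte proline-rich protein gene between LCE3A and IVL, was also named after its values were seen and reached 10 in treated libraries alone, so it is given with no test. It measured 10.4, 12.9 and 28.4 in the edited line with TGFβ, against 0 in all 3 untreated libraries, and 2.20, 23.0 and 1.68 in wild type with TGFβ, against 0, 1.65 and 4.30 untreated. The groups overlapped in wild type.

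**Figure D3:**
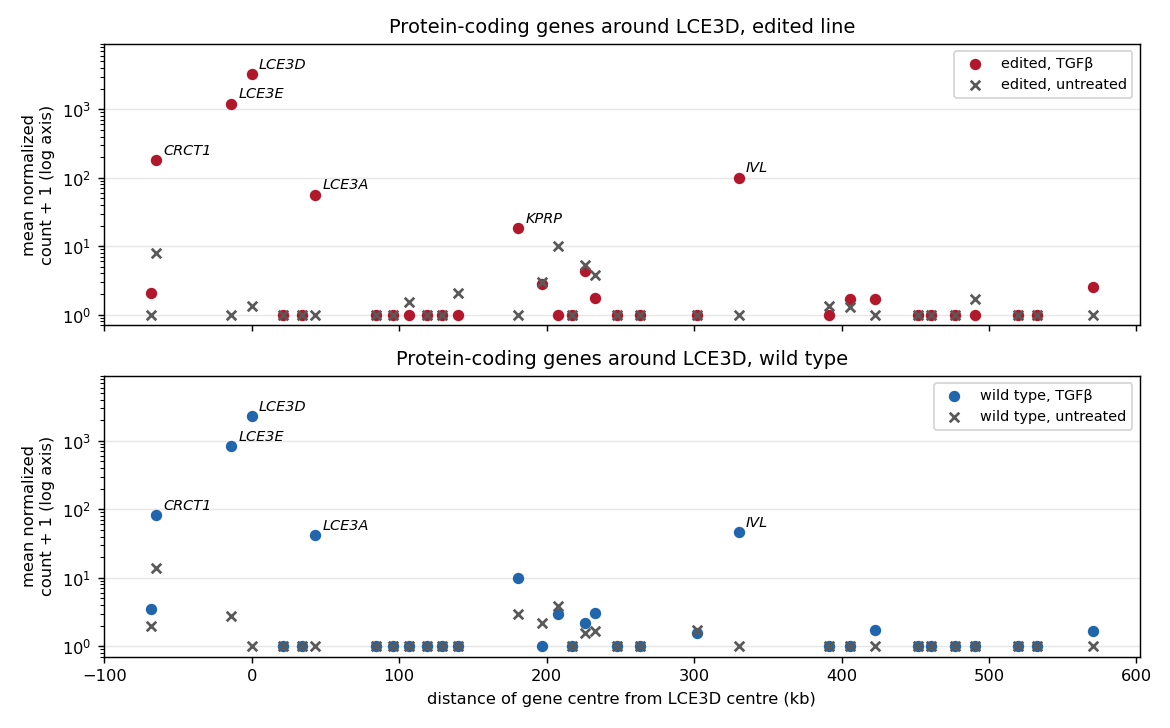
Mean normalized count plus 1 (log axis) of the 33 protein-coding genes around LCE3D against the distance of each gene's centre from the centre of LCE3D in kb, for the edited line (upper panel) and wild type (lower panel); filled circles are TGFβ-treated means and crosses untreated means of 3 libraries. CRCT1, LCE3E, LCE3D, LCE3A and IVL stand above 10 with TGFβ in both lines, KPRP in the edited line, and most other genes lie at or close to 1 (a count of 0).

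The rest of the late cornified envelope and small proline-rich families was at or near 0. Of 14 other LCE genes 8 were at 0 in all libraries and none passed the filter. Their summed normalized counts ran from 4.18 to 10.8 in the treated edited line and from 16.3 to 23.6 in the untreated edited line, and from 3.36 to 12.1 in treated wild type and from 5.37 to 6.98 in untreated wild type. The 7 other SPRR genes in the table summed to at most 4.55 in any library, and none was tested. By the same sum, the 8 members ran from 4455 to 4875.5 in the treated edited line and from 2632 to 3858 in treated wild type, with at most 3.30 in an untreated library.

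The DNA just before the start sites of the LCE3 genes was compared, because LCE3D and LCE3E were high with TGFβ while LCE3C was at 0. The 120 bases before each start site in RefSeq (GRCh38.p14) are given 5′ to 3′ on the gene's strand, LCE3D at chr1:152580517-152580636 (minus), LCE3E at chr1:152566781-152566900 (minus) and LCE3C at chr1:152600114-152600233 (plus). Capitals mark runs of at least 12 bases shared with LCE3E (line for LCE3D) or with LCE3D (other lines).
LCE3D: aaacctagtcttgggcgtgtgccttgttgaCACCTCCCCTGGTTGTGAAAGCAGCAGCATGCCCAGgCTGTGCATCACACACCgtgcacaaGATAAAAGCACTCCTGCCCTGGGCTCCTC
LCE3E: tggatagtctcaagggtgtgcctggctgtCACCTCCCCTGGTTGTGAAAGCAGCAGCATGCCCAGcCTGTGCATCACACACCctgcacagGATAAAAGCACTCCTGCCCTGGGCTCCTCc
LCE3C: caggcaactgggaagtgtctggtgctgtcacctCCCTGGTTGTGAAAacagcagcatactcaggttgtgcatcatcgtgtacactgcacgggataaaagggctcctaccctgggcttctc

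RefSeq windows of 300 bases, 250 before and 50 after the start, were found for 7 of the 8 genes. LCE3D and LCE3E shared a run of 36 bases and were 71.8% identical over the aligned windows. The longest run that LCE3C shared with both was the 14 bases CCCTGGTTGTGAAA, beginning 84 bases before the start in LCE3D, 85 in LCE3E and 87 in LCE3C, and 3 of 35116 promoter windows held it on either strand (0.00854%), so LCE3C, at 0 in every library, carries it in the reference sequence as well. The TATA-like run GATAAAAG lay 29 bases before the start in LCE3D and LCE3C and 30 before it in LCE3E, and 0.869% of all windows held it. Both runs were picked after the sequences were seen. For LCE3A the RefSeq start is the start codon itself, so its window holds unlike DNA. That window shared a run of at most 10 bases with the LCE3D window (46.9% identical over the aligned windows).

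Motifs of factors linked to TGFβ and to keratinocyte differentiation were counted in the same windows on both strands. The SMAD box CAGAC, bound by the transcription factors of the TGFβ pathway, occurred once in LCE3C, LCE3E, SPRR1A, SPRR1B and IVL and, before the start codon, in LCE3A. It was not found in LCE3D, and 45.3% of all windows held it. The AP-1 site TGANTCA (any base at N) occurred once in SPRR1A, 2 times in SPRR1B and once in IVL, was not found in the 4 LCE3 windows, and was held by 7.71% of all windows. TATAAA occurred in SPRR1A and IVL and in 11.5% of all windows. A match is a description of letters, and its absence from these windows says nothing of the factors.

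Enzymes that cross-link the envelope were read beside the members. Counts of called genes in this and the following lists stand beside 32.1% higher and 30.7% lower of all tested genes in the edited line, and 30.8% and 30.9% in wild type, and a share near those is no result about a list. A gene that passed the filter only through the libraries where it was high stays in these counts, but its call is no evidence. TGM2, tissue transglutaminase, rose in both lines, to 247699 in the edited line with TGFβ, against 61929 untreated (log2 fold change 2.00 ± 0.06, adjusted p = 1.04e-13), and to 163156 in wild type with TGFβ, against 46534 untreated (1.81 ± 0.06, adjusted p = 3.88e-13). TGM1, the main transglutaminase of the epidermal envelope, was not called in either line, with -0.22 ± 0.23 in the edited line (adjusted p = 0.42) and 0.55 ± 0.23 in wild type (adjusted p = 0.0513). The wild type value of TGM1 passed the threshold without treated wild type replicate 1 or 3, without untreated edited replicate 1 and with both count tools. TGM3, an epidermal and hair follicle transglutaminase, fell by 2.76 ± 0.57 in the edited line and fell by 2.80 ± 0.57 in wild type, and reached 10 in untreated libraries alone. Of 3 tested transglutaminases 1 rose and 1 fell in each line, with medians of -0.22 in the edited line and 0.55 in wild type.

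Other precursors and scaffold proteins moved in both directions. CST6, a cysteine protease inhibitor of the cornification pathway, rose by 3.17 ± 0.80 in the edited line, to 10.3 against 0 untreated, and by 3.86 ± 0.80 in wild type, to 15.5 against 0 untreated, although it reached 10 in treated libraries alone. CSTA, cystatin A of the envelope, fell by 3.51 ± 0.32 in the edited line and fell by 2.13 ± 0.32 in wild type. PERP and EVPL, of desmosomes and the envelope scaffold, rose by 0.55 ± 0.09 and 0.24 ± 0.08 in the edited line and by 0.31 ± 0.09 and 0.21 ± 0.08 in wild type. In each line 3 of the 5 tested scaffold and inhibitor genes rose and 2 fell (limma, adjusted p between 7.39e-08 and 0.0345). Their median was 0.24 in the edited line and 0.21 in wild type. In wild type only 1 rose without untreated replicate 2, and in the edited line only 1 fell without treated replicate 3 or untreated replicate 1 or 3. EVPL was not called in the edited line without treated or untreated replicate 2, nor in wild type without treated replicate 2 or 3 or untreated replicate 2 or 3.

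Of the loricrin and filaggrin family, 4 of 8 genes in the table were tested. In the edited line 1 rose, TCHHL1, and in wild type 4 rose, TCHHL1, FLG, HRNR and TCHH. TCHHL1, a trichohyalin-like gene, averaged 9.16 in the edited line with TGFβ and 10.1 in wild type with TGFβ, against 0 untreated in both. It too reached 10 in treated libraries alone, so its call in either line is no evidence. FLG, filaggrin, which bundles keratin filaments, averaged 288 in the edited line with TGFβ, against 198 untreated (0.53 ± 0.34, adjusted p = 0.188), and 218 in wild type with TGFβ, against 106 untreated (0.97 ± 0.34, adjusted p = 0.0221). The edited count was 0 without treated replicate 1 or 2 or any untreated edited library and 2 on leaving out any wild type library except treated replicate 2, and it was also 2 with edgeR and with DESeq2. The wild type count was 2 without treated replicate 3, and FLG was not called there without that library or untreated replicate 1. TCHHL1 lost its wild type call without treated replicate 1 (adjusted p = 0.0552) or 3 (adjusted p = 0.065). The median was 0.54 in the edited line and 0.94 in wild type. Loricrin, listed as LOR, had reads in treated wild type alone, with a highest value of 1.68.

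S100 calcium-binding genes of the same chromosome region and lipid and protease genes of cornification were mixed. Of 13 tested S100 genes 5 rose and 4 fell in the edited line, and 7 rose and 3 fell in wild type, with medians of -0.03 and 0.51. In the edited line these are 38.5% and 30.8% of the list, close to the shares of all tested genes given above. S100A2 rose by 1.26 ± 0.18 in the edited line and by 1.64 ± 0.18 in wild type, S100A3 by 1.57 ± 0.16 and 1.19 ± 0.16 in the same lines. S100A9, an alarmin induced in inflamed epidermis, fell by 1.80 ± 0.20 in the edited line and fell by 1.43 ± 0.20 in wild type, and S100A14 fell by 2.37 ± 0.43 in the edited line and fell by 1.62 ± 0.43 in wild type. S100A8, the partner of S100A9, fell by 2.75 ± 0.84 in the edited line, to 1.86 against 14.3 untreated, and reached 10 in untreated edited libraries alone. ABCA12, the lipid transporter of lamellar granules, fell by 1.91 ± 0.11 in the edited line and fell by 1.55 ± 0.11 in wild type. ALOX12B, a lipoxygenase of the epidermal lipid barrier, fell by 2.00 ± 0.38 in the edited line and was not called in wild type (0.67 ± 0.38, adjusted p = 0.139), while ALOXE3, which acts after it, rose by 1.95 ± 0.50 in wild type and was not called in the edited line (0.70 ± 0.50, adjusted p = 0.242). Of the 5 tested lipid and protease genes 0 rose and 2 fell in the edited line (1 rose without untreated wild type replicate 2), and 1 rose and 1 fell in wild type (2 rose without untreated replicate 1 or 3), with medians of -0.94 and 0.45.

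Transcription factors of keratinocyte differentiation also moved in both directions. TP63, the master regulator of stratified epithelium, measured 9135, 9838.5 and 9655 in the edited line with TGFβ, against 429, 464 and 569.7 untreated. In wild type it measured 6408, 6981 and 7902 with TGFβ, against 1098, 976 and 1048 untreated. TP63 rose by 4.30 ± 0.10 in the edited line (adjusted p = 2.28e-15) and by 2.76 ± 0.10 in wild type (adjusted p = 5.57e-13), and its edited response exceeded the wild type one by 1.53 ± 0.14 (adjusted p = 5.59e-06). PRDM1, also called BLIMP1, a regulator of the granular layer, rose by 1.71 ± 0.11 in the edited line and by 1.54 ± 0.11 in wild type. KLF4, a barrier regulator, fell by 1.44 ± 0.09 in the edited line and fell by 0.81 ± 0.09 in wild type, and ELF3, an epithelial differentiation factor, fell by 1.49 ± 0.06 in the edited line and fell by 1.74 ± 0.06 in wild type. Of 8 tested regulators 3 rose and 3 fell in the edited line, and 3 rose and 4 fell in wild type, with medians of 0.25 and -0.23.

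AP-1, the dimeric factor of FOS and JUN proteins that acts on IVL and SPRR promoters in keratinocytes, had all 8 listed subunits tested. In the edited line 4 rose and 4 fell, and in wild type 4 rose and 3 fell. JUNB rose by 2.45 ± 0.08 in the edited line and by 2.18 ± 0.08 in wild type, FOSB by 2.45 ± 0.14 and 1.42 ± 0.14, and JUN by 2.10 ± 0.07 and 1.04 ± 0.07 in the same lines. JUND fell by 1.32 ± 0.07 in the edited line and fell by 1.69 ± 0.07 in wild type. The median was 0.20 in the edited line and 0.29 in wild type.

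**Figure D4:**
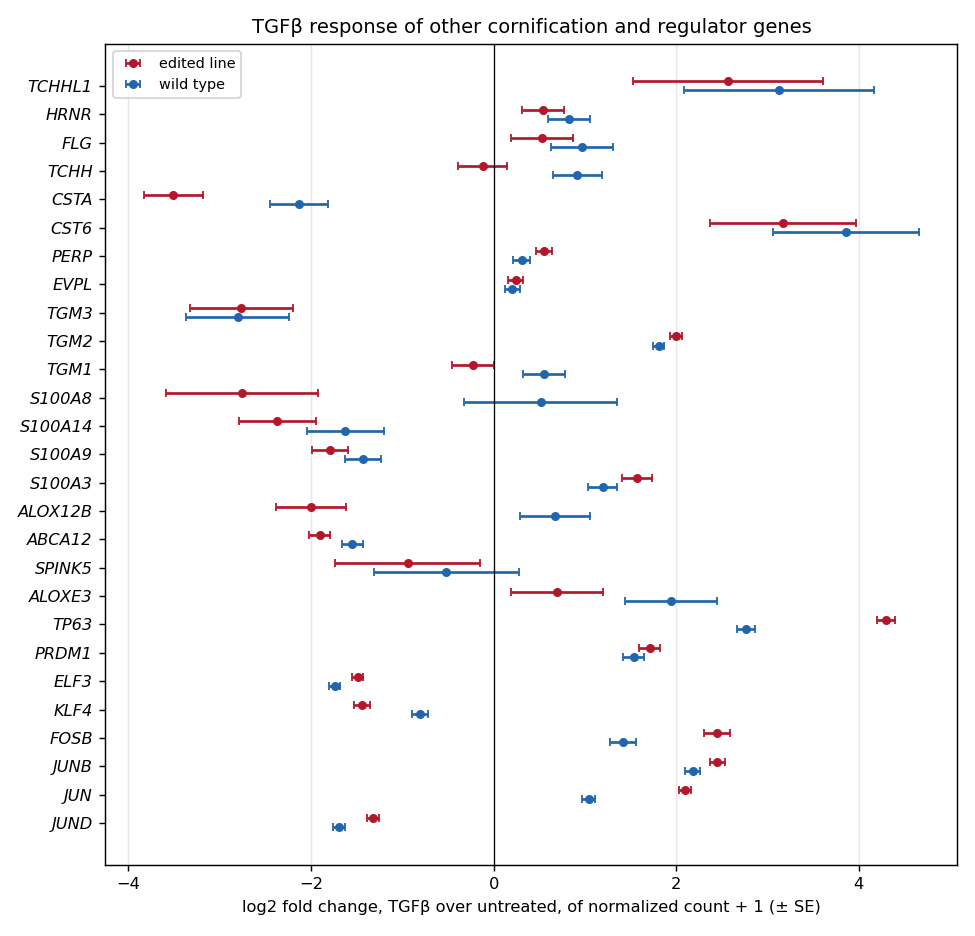
Log2 fold change of normalized count plus 1, TGFβ over untreated, for 27 genes of the cornification, S100, regulator and AP-1 lists, red for the edited line and blue for wild type, with whiskers of 1 SE. TP63, JUNB, FOSB, JUN, TGM2 and CST6 lie right of 0 in both lines, CSTA, TGM3, ABCA12, S100A9, ELF3, KLF4 and JUND left of it, and ALOX12B lies left in the edited line and right in wild type.

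Markers of other cell types were read beside these values. Of 10 keratinocyte markers 4 were tested. KRT6A, a keratin of wounded epidermis, averaged 88.2 in the edited line with TGFβ, against 11.7 untreated, and 59.0 in wild type with TGFβ, against 3.14 untreated. KRT5, the basal-layer keratin, averaged 15.6 in the edited line with TGFβ, against 1.80 untreated, and 9.16 in wild type with TGFβ, against 2.95 untreated, and reached 10 in treated libraries alone. Its partner KRT14 averaged 3.21 with TGFβ and 0 untreated in the edited line, and 3.92 with TGFβ and 1.33 untreated in wild type, and KRT1 of the upper layers averaged at most 1.12 in any group. KRT10 fell by 1.65 ± 0.10 in the edited line and fell by 0.96 ± 0.10 in wild type. The keratinocyte markers rose for 3 and fell for 1 of the 4 in the edited line (1 rose without treated replicate 2 or 3) and rose for 1 and fell for 1 in wild type. Of those that rose in the edited line, KRT5 and KRT16, a further keratin, reached 10 in treated libraries alone. The filter therefore makes their calls no evidence, while KRT6A also reached 10 in untreated edited libraries. The summed counts of the 10 markers, mostly KRT10, ran from 2283 to 2623 in the treated edited line and from 6981 to 7625 in the untreated edited line, and from 2274 to 3024 in treated wild type and from 4602 to 5285 in untreated wild type.

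Fibroblast markers rose for 4 of 5 tested genes in both lines, among them PDGFRA by 5.36 ± 0.32 in the edited line and by 4.60 ± 0.32 in wild type. FAP, also among those that rose, would not have passed the filter without treated libraries, so its calls are no evidence. The marker that fell, TCF21, did so by 1.35 ± 0.55 in the edited line (adjusted p = 0.0444) and by 1.98 ± 0.55 in wild type (adjusted p = 0.00546, limma). TCF21 would not have passed the filter without untreated libraries, so its calls are no evidence either. Its edited call was lost without any 1 of 6 libraries, treated replicate 2 or 3 and untreated replicate 1 or 3 of the edited line and untreated wild type replicate 1 or 2 (adjusted p between 0.0514 and 0.166). The fibroblast marker sums ran from 1925 to 2306 with TGFβ and from 204 to 281 untreated in the edited line, and from 1293.5 to 1709.6 with TGFβ and from 145 to 194 untreated in wild type. Leukocyte markers summed to 128 to 162 with TGFβ and 118 to 138 untreated in the edited line, and to 89.2 to 131 with TGFβ and 80.7 to 109.6 untreated in wild type, and CD3E was at 0 in all treated libraries. Within those sums, of 4 tested markers 1 rose and 2 fell in each line. CSF1R, a macrophage receptor, rose by 5.46 ± 0.76 in the edited line, to 93.0 against 2.86 untreated, and by 2.47 ± 0.76 in wild type, to 52.2 against 10.4 untreated. LYZ, lysozyme, fell by 4.01 ± 0.86 in the edited line and fell by 3.28 ± 0.86 in wild type. PTPRC, the leukocyte antigen CD45, fell by 1.90 ± 0.73 in the edited line and fell by 3.34 ± 0.73 in wild type. CSF1R would not have passed the filter without treated libraries, nor LYZ and PTPRC without untreated ones, so their calls are no evidence. The edited call of PTPRC was lost without any 1 edited library other than treated replicate 1, with edgeR and with DESeq2 (adjusted p between 0.0557 and 0.133), and the wild type call of CSF1R without untreated wild type replicate 1 (adjusted p = 0.0566). Of 6 tested lung epithelial markers 5 fell in each line, among them CDH1, E-cadherin, which fell by 1.73 ± 0.06 in the edited line and fell by 1.63 ± 0.06 in wild type. The other one, NKX2-1, a lung lineage factor, was called higher in the edited line, with a mean of 24.2 with TGFβ against 9.40 untreated (1.67 ± 0.68, adjusted p = 0.0442), and was not called in wild type (1.07 ± 0.68, adjusted p = 0.189). NKX2-1 would not have passed the filter without treated libraries, so its edited call is no evidence. That call was lost with edgeR, with DESeq2 and on leaving out any treated edited library, untreated edited replicate 2 or 3, or treated or untreated replicate 2 of wild type (adjusted p between 0.053 and 0.17), and wild type passed without untreated wild type replicate 1 (adjusted p = 0.0378). With 1 library left out, these lung epithelial counts ran down to 3 in the edited line (without treated replicate 2 or untreated replicate 1) and to 2 in wild type (without untreated replicate 1; 3 without treated replicate 2 or 3). The part of these markers in the levels of the cornified envelope genes was not tested.

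Genes whose pattern over the 12 libraries was most like that of LCE3D were ranked by Pearson correlation of log2 values, as a description. The first 3 were GPC4 (r = 0.9988), a glypican, SMAD7 (0.9985), a feedback inhibitor of TGFβ signalling, and ZNF503 (0.9982), a zinc finger gene. GPC4, for example, averaged 1264 ± 49.2 in the edited line with TGFβ, against 54.6 ± 8.20 untreated, and 1058 ± 35.4 in wild type with TGFβ, against 52.9 ± 3.48 untreated. The libraries fall into a treated and an untreated cluster, so such an r mostly reflects the treatment, and 286 of 20452 other tested genes reached at least 0.99. Among the members r was 0.997 for LCE3A, 0.992 for IVL and 0.988 for LCE3E.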

How the data were processed

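RNA-seq of 12 libraries was used, and the labels gave each library its group. The authors deposited a signal of normalized counts per gene symbol. The submitters' processing notes name the tools HISAT2, StringTie, featureCounts and DESeq2 and the genome build GRCh38.p14, with neither versions, roles nor a strand setting. Division by a constant step per library returned whole reads for 100% of values (tolerance 0.01). The 20456 genes that reached 10 in 3 libraries or more entered 1 limma fit (3.58.1, trend, R 4.3.3) of the 4 group means on log2(value + 1); tests were two-sided, with p adjusted by Benjamini-Hochberg over these genes and called under 0.05. Alternatives were pseudocounts of 0.5 and 10, no filter and a filter of 50, TMM factors, equal totals, edgeR 4.0.16 and DESeq2 1.42.0 on the recovered reads, a replicate block, the compared groups alone and each library left out. The fit was tested on simulated data.

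Values after ± are SE for log2 fold changes and SD for means, with n = 3. A fold over a group at 0 used 3 reads over its 3 untreated libraries. Low reads were often even (59.3% to 62.2% of values of 1 to 20 reads), so intervals that treat reads as single counts may be too narrow. Reads without molecular identifiers are not independent molecules. Positions and transcripts came from GENCODE 29, promoter windows from RefSeq. Members and lists were chosen with earlier results of these data known. The rule for named genes took the 8 members, up to 4 tested genes of each list by the size of the TGFβ change in the edited line, TGM1, TGM2, S100A2, TP63 and the 5 genes most like LCE3D; CRCT1, KPRP and other genes given for context were named after their values were seen. A few genes picked by this rule or listed as markers are not reported here. Levels across genes are given per kilobase of annotated exon.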

Additional observations from a re-analysis of the deposited data

Results flagged for a closer look

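The TGFβ response of 11 described genes differed between the edited line and wild type by the interaction term in limma, adjusted over all 20456 tested genes, of which 10.6% were called larger and 6.02% smaller in the edited line. Among the cornified envelope genes this was LCE3E (1.75 ± 0.57, adjusted p = 0.0474), whose difference holds 6 reads of the untreated wild type libraries and lost its call on leaving out 11 of the 12 libraries 1 at a time. SNAI1, the edited target, had the larger log2 fold change in the edited line (0.62 ± 0.18, adjusted p = 0.0279), 1.45 against 0.83 in wild type, and kept its call in 6 of the 12 fits with a library left out (adjusted p up to 0.0793). TP63 (1.53, adjusted p = 5.59e-06), JUN (1.06, adjusted p = 5.08e-06), FOSB (1.03, adjusted p = 0.00239), JUND (0.38, adjusted p = 0.0143) and ELF3 (0.25, adjusted p = 0.0492) had the higher log2 fold change in the edited line, JUND and ELF3 because they fell less there. ALOX12B (-2.68, adjusted p = 0.00302), CSTA (-1.37, adjusted p = 0.0497), KRT10 (-0.69, adjusted p = 0.00234) and KLF4 (-0.63, adjusted p = 0.00258) had the lower one. An interaction also holds any difference between the untreated lines. FOSB averaged 772 untreated in the edited line and 1694 in wild type, against 4274 and 4529 with TGFβ. In the same lines JUN averaged 6180 and 11535 untreated, against 26427 and 23714 with TGFβ. KLF4 averaged 3381 and 2290 untreated, against 1241 and 1307 with TGFβ. KRT10 averaged 7319 and 4923 untreated, against 2333 and 2547 with TGFβ. CSTA kept its call in 3 and ELF3 in 1 of the 12 fits with a library left out (adjusted p up to 0.127 in both), and no gene of these other than LCE3E, SNAI1, CSTA and ELF3 lost its call in any of those fits. Groups of 3 libraries were too small to look for single outlying samples.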

How the results depend on the processing

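With TGFβ in the edited line, 3 members other than LCE3D were called higher and 0 lower, a count that their filter through treated libraries makes no evidence, and these numbers were the same under every alternative run except the filter of 50, which left LCE3A untested and gave 2 higher. With TGFβ, 0 members were called higher in the edited line than in wild type; a pseudocount of 10 gave 2, edgeR 3, DESeq2 3 and the compared groups alone 1. Untreated, the 1 member called lower (LCE3E) became 0 with a pseudocount of 10, with no filter and with the compared groups alone, and ran from 0 to 1 with 1 library left out. The 1 larger interaction (LCE3E) became 0 with a pseudocount of 0.5, no filter, TMM factors or equal totals and ran from 0 to 1 with 1 library left out. The log2 fold change of LCE3D in wild type was 11.15, and it was 12.15 with a pseudocount of 0.5, 7.83 with 10, 14.18 in edgeR and 13.67 in DESeq2. The interaction of LCE3D (0.17) turned to -0.027 with a pseudocount of 0.5, -1.36 in edgeR and -0.47 in DESeq2, and ran from -0.0022 (without untreated edited replicate 1 or 3) to 0.52 with 1 library left out. TCHH in the edited line (-0.12) ran from -0.32 to 0.043 with 1 library left out, above 0 without treated replicate 3 or untreated replicate 2, and SPINK5 in wild type (-0.52) from -1.11 to 0.35, above 0 without treated replicate 3. The cause was not tested. Same-numbered libraries of different groups correlated between -0.031 and 0.129 in their deviations (1 of 12 pairs above 0.1). The main fit did not pair them, and these values do not settle whether the numbers pair samples. With a replicate block the counts of members were the same, 3 for TGFβ in the edited line, 1 untreated and 1 for the interaction. The LCE3D value stayed at 11.15, and TGM1 in wild type was called (adjusted p = 0.0458). Between the treated lines 2987 of all tested genes were called with that block, against 1510 higher and 884 lower in the main fit. The untreated levels of LCE3D, LCE3E and SPRR1A rest on 1 to 6 reads per group, which limits every comparison between the untreated lines.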
